A study of Mus musculus with 20 samples.

Results

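Mitochondrial fusion, fission and cristae genes were followed here as 10 genes named by symbol. They are Opa1, Mfn1 and Mfn2 for fusion, Dnm1l, Fis1 and Mff for fission, Immt, Chchd3 and Chchd6 of the MICOS complex, and the prohibitin Phb2. All 10 were found by Ensembl ID in both count tables, which hold 47069 genes for heart and 53801 for muscle, with 46649 in both. The study asked how a systemic loss of Tafazzin (Taz) changes the transcriptome of heart and skeletal muscle, as a mouse model of Barth syndrome. RNA was sequenced from hearts of 5 Taz-KD and 5 WT mice and from femur muscle of 5 Taz-KD and 5 WT mice. The Taz-KD mice carried the ROSA26H1/tetO-shRNA:TAZ transgene, which makes a hairpin RNA against Taz under doxycycline. The WT mice were C57BL/6N, and both genotypes ate chow with 625 mg/kg doxycycline and were 20 weeks old. Each library was 1 mouse. The codes in the sample titles are not shared between tissues, so the tissues were taken to come from different mice. The knockdown acts in the whole animal, so a change in heart or muscle need not start in its own muscle cells. These are bulk tissues, in which fewer cells of a type and less RNA per cell cannot be told apart.

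Mitochondria fuse and divide continuously. The mitofusins join the outer membranes, OPA1 joins the inner membranes and holds cristae junctions tight, and the dynamin DRP1, the product of Dnm1l, is recruited to the outer membrane to constrict and cut the organelle. MICOS, built around mitofilin (Immt), shapes the necks of the cristae, and prohibitins form ring-like scaffolds in the inner membrane. Tafazzin remodels cardiolipin, the inner membrane lipid with which OPA1, MICOS and the prohibitins are associated, and heart and skeletal muscle are rich in densely folded cristae.

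The promoters are shown first for the members on which the heart results turn: Chchd6 and Phb2, which passed the test, and Opa1, which lay next to the threshold. These are the 250 bases before the annotated start from RefSeq (GRCm38.p6), written 5′ to 3′ on the strand of the gene. Capitals mark matches to the NRF1 core (GCGCANGCG), read on both strands. The Chchd6 window lies at chr6:89595653-89595902 on the minus strand, that of Opa1 at chr16:29579084-29579333 on the plus strand and that of Phb2 at chr6:124712039-124712288 on the plus strand.
Chchd6: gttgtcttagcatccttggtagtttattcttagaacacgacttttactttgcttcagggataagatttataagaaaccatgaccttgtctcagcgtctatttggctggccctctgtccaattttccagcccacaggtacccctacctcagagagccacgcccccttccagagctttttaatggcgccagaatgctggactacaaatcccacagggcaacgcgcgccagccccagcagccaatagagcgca
Opa1: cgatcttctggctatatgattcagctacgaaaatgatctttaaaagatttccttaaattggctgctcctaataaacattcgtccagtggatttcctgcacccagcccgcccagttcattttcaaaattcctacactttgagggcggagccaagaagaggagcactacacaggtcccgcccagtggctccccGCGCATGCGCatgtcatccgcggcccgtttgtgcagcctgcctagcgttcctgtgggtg
Phb2: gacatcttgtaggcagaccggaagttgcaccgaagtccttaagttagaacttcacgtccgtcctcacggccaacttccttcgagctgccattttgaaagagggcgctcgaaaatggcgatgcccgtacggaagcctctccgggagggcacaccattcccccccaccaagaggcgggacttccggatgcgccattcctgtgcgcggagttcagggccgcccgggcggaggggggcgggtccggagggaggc

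The Opa1 window held the NRF1 core on both strands, as 2 overlapping matches that are offset by 1 base, whereas the windows of Chchd6 and Phb2 held no match. Over the full windows, which run 250 bases before to 50 bases after a start, the 10 members had 15 windows. The NRF1 core was found for 2 of 10 members, Opa1 and Immt, against 7.03% of the 27025 genes in the table. The ATF4 composite element (TGATGNAAN) was found for 0 of 10 members and for 4.5% of all genes. The ERR element (TCAAGGTCA) was found for 0 of 10 members and for 0.466% of all genes. A match describes letters only, and a window with no match says nothing about the factor. Of the 10 members, 4 lie on chromosome 6, at separate places: Immt, Chchd3, Chchd6 and Phb2. That chromosome holds 5.05% of the 22028 protein-coding genes of GENCODE M21. Whether the chromosome has a part in the heart results was not tested.

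Total counts per library were 30248445 to 35301909 in Taz-KD hearts and 26963288 to 30090918 in WT hearts, so the heart totals did not overlap between genotypes. They were 46985694.0 to 74361382.0 in Taz-KD muscle and 36429399.0 to 61100247.0 in WT muscle. Values are TMM-normalised read counts in CPM, so that libraries of unequal total can be set side by side. A change passed when edgeR's quasi-likelihood fit gave an adjusted p under 0.05, after Benjamini-Hochberg adjustment over the 19486 genes tested in heart or the 16145 tested in muscle. The biological coefficient of variation was 16.8% in heart and 31.8% in muscle. Cardiomyocyte markers summed to 43600 to 58780 CPM in Taz-KD hearts and 46110 to 62210 CPM in WT hearts, and skeletal fibre markers to 149500 to 232500 CPM in Taz-KD muscle and 71760 to 218200 CPM in WT muscle, as the tissue labels say. The WT muscles A33 and A55 stood apart from the other muscle libraries and had adipocyte marker sums of 2919 and 1304 CPM, against 165 to 655 CPM in the other 8. They also had the lowest skeletal fibre sums, at 113000 and 71760 CPM. A55 further had the highest cardiomyocyte and Schwann cell marker sums among muscles, at 7752 and 1181 CPM, against 373 and 216 CPM in A33. Sums of this kind do not show which cells or fibre types the reads came from. The small nuclear RNA Rn7sk measured 7770 to 10900 CPM in hearts and 0.0185 to 0.444 CPM in muscles, so tissue and library making cannot be told apart when levels are set across tissues. Taz, the targeted gene, measured 11.7 ± 0.731 CPM in Taz-KD hearts and 37.8 ± 1.4 CPM in WT hearts (SD, n = 5 each), which is 30.8% of the WT level. In muscle it measured 13.4 ± 1.05 CPM in Taz-KD and 51.7 ± 3.42 CPM in WT libraries (SD, n = 5 each), or 26% of WT. An exact two-sided permutation test over every choice of 5 from 10 libraries gave p = 0.00794 in each tissue, the smallest this design allows.

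In heart, 2 of the 10 members passed the test, Chchd6 and Phb2, both higher in Taz-KD, and none was lower. Over all genes tested in heart, 24.6% passed, 14.4% higher and 10.3% lower in Taz-KD, so the members' count of 2 is near that background. The median log2 fold change was 0.06 over the members and -0.02 over all genes. At an unadjusted p under 0.05 the count of members was 5, against 36.5% of all heart genes tested. Chchd6 was also the only member whose libraries did not overlap between genotypes, against 18.3% of all genes tested. The folds of the other 9 members ran from 0.878 for Opa1 to 1.19 for Phb2.

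The 3 fusion genes all had slightly lower means in Taz-KD hearts, and none passed the test. Opa1 (ENSMUSG00000038084, GRCm38 chr16:29579334-29654884, plus strand) encodes the dynamin-like GTPase that fuses inner membranes. Its counts were 225, 210, 224, 217 and 221 CPM in Taz-KD hearts, against 221, 247, 238, 275 and 270 CPM in WT hearts. All 5 Taz-KD libraries lay below the WT median and close together, and they overlapped with the lowest WT heart, R3. The log2 fold change of Opa1 was -0.19 ± 0.07 (SE; edgeR adjusted p = 0.0565), with a 95% interval of -0.33 to -0.04. The call depended on the libraries used: without WT heart R3 the log2 fold change of Opa1 was -0.23 with an adjusted p of 0.019 in edgeR. Without WT heart R1795 it was -0.15 (edgeR adjusted p = 0.142), and without WT heart R1800 -0.16 (edgeR adjusted p = 0.126). With all 10 hearts kept, Opa1 was past the threshold with upper-quartile scaling (adjusted p = 0.0236, edgeR) and in DESeq2 (adjusted p = 0.0242). Its adjusted p ranged from 0.019 to 0.438 over the alternatives.

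Mfn1 and Mfn2 encode the mitofusins. Mfn1 (ENSMUSG00000027668, chr3:32529465-32579239, plus strand) averaged 289 ± 20.1 CPM in Taz-KD hearts and 308 ± 23.8 CPM in WT hearts (SD, n = 5 each), a log2 fold change of -0.10 ± 0.07 (SE; edgeR adjusted p = 0.367). Every Taz-KD heart lay below the WT median of Mfn1, and the groups overlapped. Mfn2 (ENSMUSG00000029020, chr4:147873599-147904704, minus strand) averaged 740 ± 31.4 CPM in Taz-KD hearts and 760 ± 38.1 CPM in WT hearts (SD, n = 5 each). Its log2 fold change was -0.04 with a 95% interval of -0.17 to 0.09, or 0.888 to 1.07 as a fold.

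The 3 fission genes had slightly higher means in Taz-KD hearts, and again none passed. Dnm1l (ENSMUSG00000022789, chr16:16312230-16358959, minus strand), which encodes the DRP1 dynamin, had 146, 149, 148, 132 and 148 CPM in Taz-KD hearts, against 118, 127, 123, 138 and 146 CPM in WT hearts. Of the Taz-KD hearts, R1797 was low and the other 4 lay within 146 to 149 CPM, above every WT library. This gave a log2 fold change of 0.15 ± 0.07 (SE; edgeR adjusted p = 0.124). Fis1 and Mff encode outer membrane proteins, of which MFF is a main receptor for DRP1. Fis1 (ENSMUSG00000019054, chr5:136953275-136966234, plus strand) averaged 34.6 ± 1.5 CPM in Taz-KD hearts and 34.1 ± 2.27 CPM in WT hearts (SD, n = 5 each), with a log2 fold change of 0.02 and a 95% interval of -0.11 to 0.15. Mff (ENSMUSG00000026150, chr1:82724890-82752394, plus strand) averaged 101 ± 6.24 CPM in Taz-KD hearts and 94.6 ± 3.68 CPM in WT hearts (SD, n = 5 each), with a log2 fold change of 0.10 ± 0.06 (SE; edgeR adjusted p = 0.243).

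**Figure D1:**
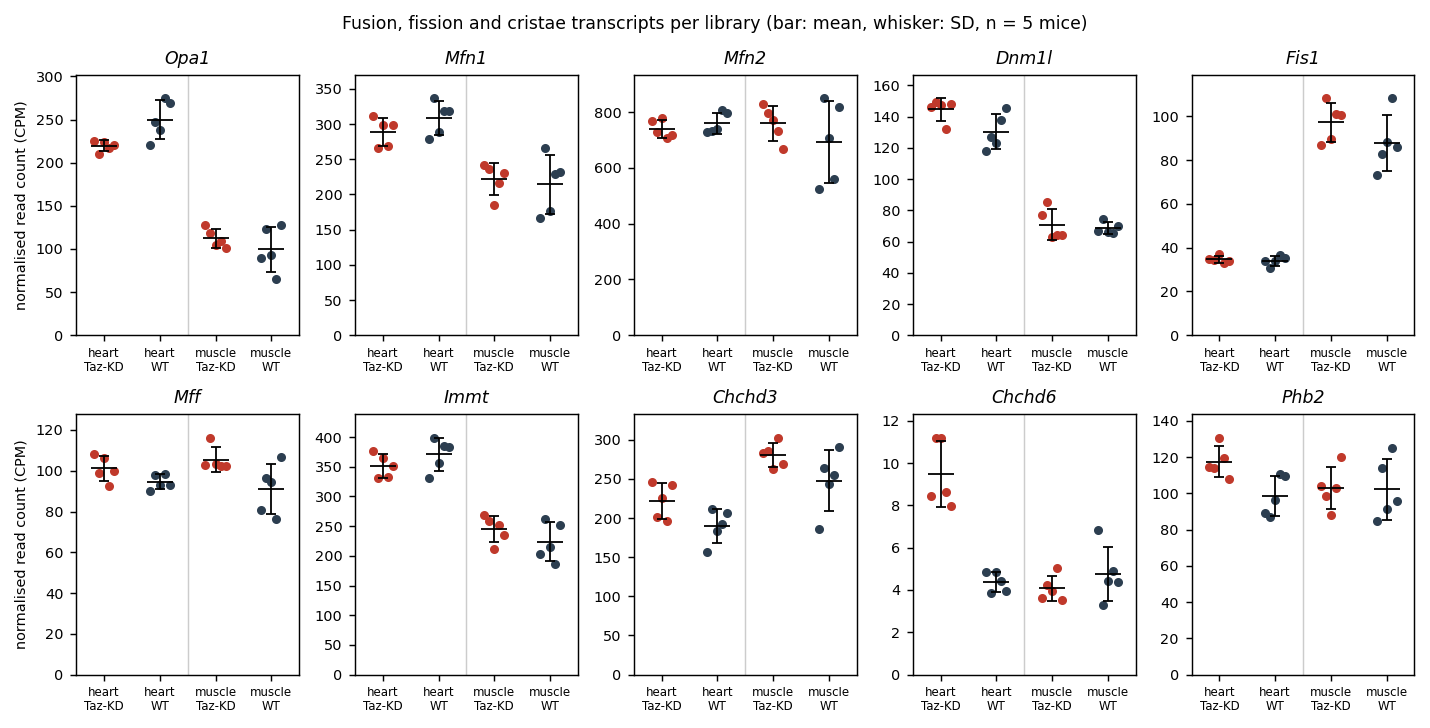
Normalised read count in CPM (y axis, from 0) of the 10 members in each library, with 4 groups of 5 mice along the x axis (Taz-KD in red, WT in dark blue); the bar is the mean and the whisker the SD. The Chchd6 panel is the only one in which the Taz-KD hearts, 7.99 to 11.2 CPM, stand clear of the WT hearts, 3.83 to 4.86 CPM, and the muscle groups overlap in every panel.

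Of the 3 MICOS genes, 1 passed the test in heart. Chchd6 (ENSMUSG00000030086, chr6:89383146-89595652, minus strand) encodes MIC25, a small MICOS subunit of the intermembrane space that binds mitofilin. It had 8.43, 11.2, 11.2, 8.63 and 7.99 CPM in Taz-KD hearts, against 4.83, 3.83, 4.86, 4.45 and 3.96 CPM in WT hearts. The lowest Taz-KD heart lay well above the highest WT heart, and the Taz-KD libraries R1793 and R1796 were the highest. Chchd6 rose 2.16-fold in Taz-KD hearts (95% interval 1.79 to 2.62), a log2 fold change of 1.11 ± 0.13 (SE; edgeR adjusted p = 5.5e-05). Its counts ran from 102 to 384 reads per heart library. The call held in all 22 alternatives, among them each single library left out, with log2 fold changes from 1.05 to 1.19 and adjusted p from 1.79e-13 to 3.07e-04.

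The other MICOS members did not pass. Immt (ENSMUSG00000052337, chr6:71831331-71877388, plus strand), the core subunit mitofilin, averaged 352 ± 19.6 CPM in Taz-KD hearts and 371 ± 27.4 CPM in WT hearts (SD, n = 5 each), a log2 fold change of -0.08 with a 95% interval of -0.22 to 0.07. Chchd3 (ENSMUSG00000053768, chr6:32790976-33060260, minus strand) encodes MIC19, which is related in sequence to MIC25 and also binds mitofilin. It had 246, 202, 226, 196 and 242 CPM in Taz-KD hearts, against 157, 212, 184, 192 and 207 CPM in WT hearts. All 5 Taz-KD libraries lay above the WT median, and the groups overlapped. For Chchd3 the log2 fold change was 0.22 ± 0.09 (SE; edgeR adjusted p = 0.0985).

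Phb2 (ENSMUSG00000004264, chr6:124712336-124716950, plus strand) encodes prohibitin 2, which builds inner membrane rings together with prohibitin 1 and stabilises long OPA1. It had 115, 114, 131, 120 and 108 CPM in Taz-KD hearts, against 89.3, 87.1, 96.4, 111 and 110 CPM in WT hearts. The WT libraries R1795 and R1800 reached into the Taz-KD range, so the groups overlapped. Phb2 rose 1.19-fold in Taz-KD hearts (95% interval 1.05 to 1.34), a log2 fold change of 0.25 ± 0.08 (SE; edgeR adjusted p = 0.0398). This call was lost in 11 of 22 alternatives, with adjusted p from 0.0259 to 0.279. It was lost without any one of Taz-KD R2, R1793, R1796 or R1797 or of WT R3, R1791 or R1792, where adjusted p ran from 0.056 to 0.0981 in edgeR. A snoRNA gene inside Phb2 shares 155 bases of its exons on the same strand, and an antisense gene shares 141 bases. Whether reads were counted by strand is not given in the sources used here.

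Some marker genes also changed with genotype in heart, though among the marker sums only those of skeletal fibre did not overlap between genotypes. Skeletal fibre markers summed to 1564 to 2414 CPM in Taz-KD hearts and 1010 to 1439 CPM in WT hearts, with 1 of 5 tested higher and Myh4 at 0 in every heart. Endothelial markers summed to 635 to 803 CPM in Taz-KD and 770 to 954 CPM in WT hearts, with 3 of 6 lower. Red cell markers summed to 289 to 457 CPM in Taz-KD and 421 to 741 CPM in WT hearts, with 3 of 5 lower. Cardiomyocyte markers had 2 of 10 lower. Over all genes tested in heart, 14.4% were higher and 10.3% lower. The part of these markers in the changes of Chchd6 and Phb2 was not tested. Among WT hearts, R3 had the highest fibroblast sum, at 2326 CPM against 1034 to 1538 CPM in the others. It also had the lowest cardiomyocyte sum among them, at 46110 CPM against 54580 to 62210 CPM. The part of this in the values of Opa1 and Chchd3 was not tested. The hearts R2 and R3 carry title codes far from those of the other 8 hearts. Without them the log2 fold change of Chchd6 was 1.19 (adjusted p = 3.07e-04) and that of Phb2 was 0.22 (adjusted p = 0.113), both in edgeR. Opa1 then passed at -0.24 (edgeR adjusted p = 0.0303), and Chchd3 was at 0.12 (edgeR adjusted p = 0.34).

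In muscle, none of the 10 members passed the test. The count was 0 in edgeR, DESeq2 and limma-voom, while 0.0186% of all muscle genes passed in edgeR, or 3 of 16145. At an unadjusted p under 0.05 in edgeR the count of members was also 0, against 14.9% of all muscle genes. In no member were the Taz-KD and WT muscles apart, against 2.14% of all genes tested. The log2 fold change was positive for 9 members and negative for Chchd6, with a median of 0.13 over the members and -0.02 over all genes. That median rested on the WT muscles A33 and A55: without them it was 0.01, with 7 members positive and 3 negative.

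The spread of WT muscles set wide limits on what could be seen. Coefficients of variation over WT muscles had a median of 16% among the members and reached 27% for Chchd6, and over Taz-KD muscles the median was 9.34%. Mff had the smallest p in muscle, with 103, 116, 104, 102 and 102 CPM in Taz-KD libraries, against 81, 96.2, 94.5, 76.2 and 107 CPM in WT libraries. Every Taz-KD muscle lay above the WT median of Mff, and the highest WT library exceeded 4 of them. The log2 fold change of Mff was 0.21 ± 0.11 (SE; edgeR adjusted p = 0.369), with a 95% interval of -0.02 to 0.45.

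Opa1 in muscle had 127, 119, 105, 109 and 101 CPM in Taz-KD libraries, against 89.8, 123, 93.2, 64.8 and 128 CPM in WT libraries. The 2 WT libraries that stood apart, A33 and A55, were the lowest, and the Taz-KD libraries lay within the WT range. The log2 fold change was 0.17 ± 0.17 (SE; edgeR adjusted p = 0.605), and without A33 and A55 it was -0.03. The other fusion genes had log2 fold changes of 0.05 for Mfn1 and 0.13 for Mfn2, with 95% intervals of -0.27 to 0.38 and -0.22 to 0.49. Of the other fission genes, Dnm1l was at 0.05 and Fis1 at 0.15, with intervals of -0.18 to 0.28 and -0.11 to 0.41. Immt was at 0.13, Chchd3 at 0.18 and Phb2 at 0.01, and each interval included 0.

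Chchd6 in muscle had 3.64, 4.23, 3.93, 5.04 and 3.51 CPM in Taz-KD libraries, against 6.82, 3.3, 4.43, 4.91 and 4.37 CPM in WT libraries. The highest and the lowest value were both from WT muscle, and the highest was A33. The log2 fold change was -0.23 ± 0.19 (SE; edgeR adjusted p = 0.549), with a 95% interval of -0.66 to 0.20, which leaves out a rise of the size seen in heart. Without A33 and A55 the log2 fold change of Chchd6 in muscle was 0.01.

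Whether the knockdown acted differently in heart and muscle was tested with an interaction term over all 20 libraries in edgeR. The fit and its alternatives took a dispersion per gene shared by both tissues, though their variation differed. Tissue and library making cannot be told apart in this test either. Chchd6 was the only member past this test, against 4.62% of 20612 genes. Its heart effect exceeded its muscle effect by 1.26 ± 0.22 on the log2 scale (SE; edgeR adjusted p = 0.00185), with a 95% interval of 0.81 to 1.71 and fitted effects of 1.09 in heart and -0.17 in muscle. This held in all 28 alternatives, with a difference of at least 1.08 and adjusted p from 7.57e-06 to 0.00569. Without A33 and A55 the difference for Chchd6 was 1.08 (edgeR adjusted p = 0.00349). Opa1 had the next largest difference in size, -0.42 ± 0.21 (SE; edgeR adjusted p = 0.272), with a 95% interval of -0.85 to 0.01. For the other 8 members the difference lay between -0.27 and 0.18 and each 95% interval included 0, the widest running from -0.64 to 0.18 for Mfn2.

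**Figure D2:**
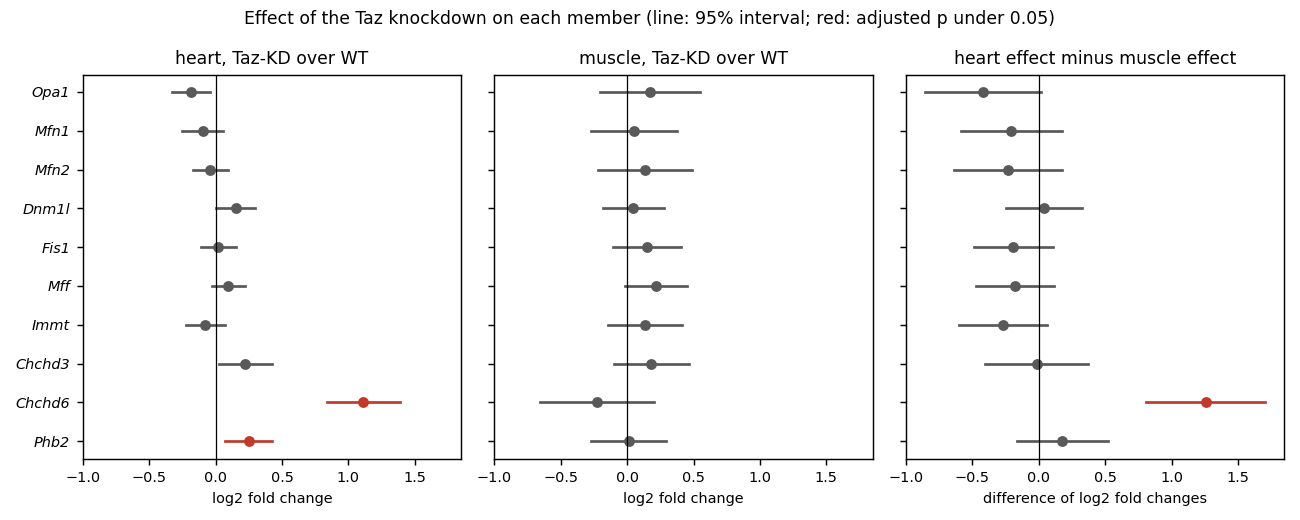
Log2 fold change of Taz-KD over WT for the 10 members in heart (left) and muscle (middle), and the heart effect minus the muscle effect from one fit of 20 libraries (right); points are estimates, lines 95% intervals, and red marks an adjusted p under 0.05 in edgeR. Chchd6 stands at 1.11 in heart, -0.23 in muscle and 1.26 for the difference, while the estimates of the other members lie between -0.42 and 0.25 in all panels.

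Levels were compared between members as CPM per kilobase of exon, in WT tissue. In WT heart, Mfn2 was the highest at 146 ± 7.33 and Chchd6 the lowest at 1.73 ± 0.189 (CPM per kilobase, SD, n = 5). Chchd3 and Mfn1 followed Mfn2 at 65.5 and 50.4 CPM per kilobase, and their library ranges overlapped. Immt, Opa1, Phb2 and Dnm1l came next, between 32.7 and 25 CPM per kilobase, and each overlapped with its neighbour in that order. With the union of exons as length, Fis1 at 19.9 and Mff at 9.69 CPM per kilobase were each below their upper neighbour in every library. The rise of Chchd6 left it last in Taz-KD hearts too, at 3.75 ± 0.624 CPM per kilobase (SD, n = 5).

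In WT muscle the order began with Mfn2 at 133 ± 28.1 and Chchd3 at 85.4 ± 13.4 CPM per kilobase (SD, n = 5 each). Fis1 came after them at 51.2 CPM per kilobase, and its range overlapped with that of Mfn1 at 35. Phb2 and Immt followed at 27.5 and 19.7 CPM per kilobase, with neighbours overlapping. Dnm1l, Opa1 and Mff lay between 13.2 and 9.31 CPM per kilobase and overlapped likewise, and Chchd6 was again last at 1.88 CPM per kilobase. These orders used the union of exons as length. With the longest transcript in its place, Chchd3 was first and Mfn2 second in WT muscle, and Chchd6 stayed last in both tissues. Immt moved up to rank 4 and Mff to rank 7 in WT muscle. In WT heart Immt then stood at rank 3 above Mfn1, Phb2 at 5 above Opa1 and Fis1 at 7 above Dnm1l. Library ranges are not given for that length, so no members are said to be apart under it.

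**Figure D3:**
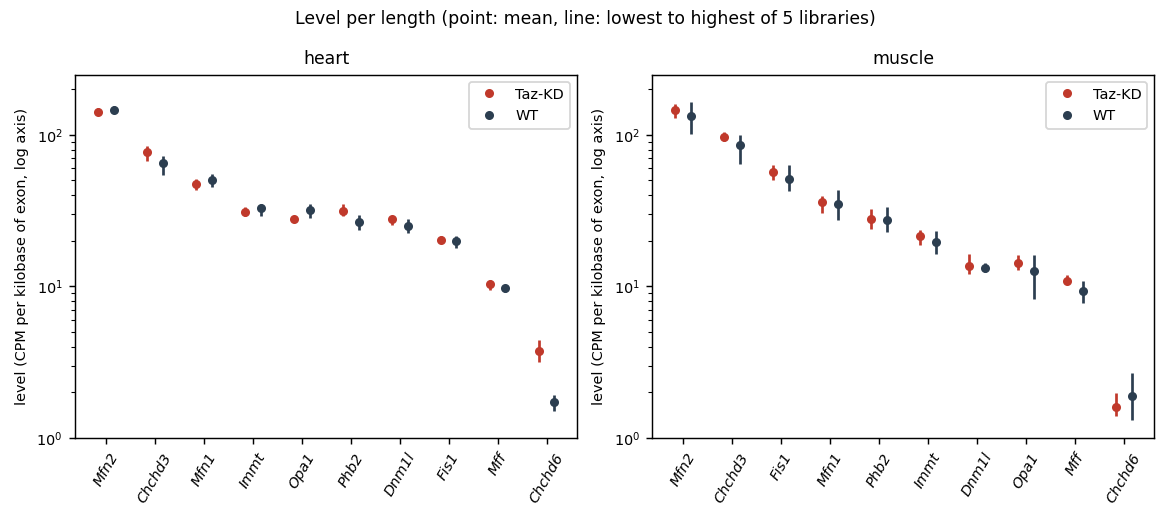
Level per length (y axis, CPM per kilobase of exon, log axis) of the 10 members in heart and muscle, ordered by the WT mean, with Taz-KD in red left of WT in dark blue; points are means and lines run from the lowest to the highest of 5 libraries. Mfn2 is the highest in both tissues and Chchd6 the lowest, at 3.75 in Taz-KD hearts and 1.73 in WT hearts.

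The genes whose heart pattern was most like that of Chchd6 were found by the root mean square difference of log2 CPM deviations from the WT mean over the 10 hearts. They were Phldb2 (0.0693), Gpx3 (0.0977), Ipo4 (0.0979), Faap20 (0.136) and Tbl1x (0.141). Their log2 fold changes in heart were 1.04, 1.15, 1.08, 0.96 and 1.05 in that order. That these lie near the value of Chchd6 follows from the choice by pattern over the same hearts, and is no separate result. For Mff in muscle, the nearest were Slc25a26 (0.0434), Arl2bp (0.0449), Nfs1 (0.0456), Eif2b1 (0.0464) and Mios (0.047), and none of these passed the test in muscle.

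Around the members, 40 partner genes were listed by role, of which 38 were tested in heart. There 10 were higher and 8 lower in Taz-KD, 47.4% against 24.6% of all genes tested, with a median log2 fold change of 0.10 against -0.02. The lists were chosen with earlier results of these data known, so neither this share nor those of single lists can be read as an excess. In one fit of all 20 libraries 9 partner genes were called, where all genes called fell from 4803 to 2087. Among 8 genes of fusion and OPA1 processing in the heart fit, 1 rose and 1 fell, 25% against 24.6% of all genes tested. March5, an outer membrane ubiquitin ligase, averaged 67.6 ± 4.19 CPM in Taz-KD hearts and 46.6 ± 2.07 CPM in WT hearts (SD, n = 5 each), a log2 fold change of 0.54 (edgeR adjusted p = 3.43e-05). Oma1, the stress-activated protease that cuts OPA1, averaged 20.3 ± 1.41 CPM in Taz-KD hearts and 25.8 ± 1.81 CPM in WT hearts (SD, n = 5 each), a log2 fold change of -0.34 (edgeR adjusted p = 0.00369). Yme1l1, the other OPA1 protease, had a log2 fold change of 0.12 with an adjusted p of 0.189 in edgeR.

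Of 9 fission partners tested in heart, 3 rose and 4 fell, 77.8% against 24.6% of all genes tested. Dnm2, dynamin 2, averaged 128 ± 4.48 CPM in Taz-KD hearts and 85.9 ± 3.32 CPM in WT hearts (SD, n = 5 each), a log2 fold change of 0.58 (edgeR adjusted p = 6.18e-06). Mtfp1, an inner membrane protein that promotes division, averaged 31.2 ± 1.4 CPM in Taz-KD hearts and 52 ± 8.52 CPM in WT hearts (SD, n = 5 each), a log2 fold change of -0.74 (edgeR adjusted p = 1.81e-04). Mtfr1, a fission regulator, fell by 0.67 on the log2 scale and Inf2, a formin of the endoplasmic reticulum, fell by 0.47, a call for Inf2 that was lost in 1 of 22 alternatives. Mtfr2 rose by 1.05, at a mean of only 1.04 CPM in Taz-KD hearts and 0.501 CPM in WT hearts, a call lost in 2 of 22 alternatives. Pgam5, a mitochondrial phosphatase, rose by 0.26 and Mief2, a receptor for DRP1, fell by 0.19; these calls were lost in 15 and 13 of 22 alternatives.

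Of 9 further MICOS subunits and outer membrane bridge genes, 2 rose and 1 fell in heart, 33.3% against 24.6% of all genes tested. Mtx2, a metaxin of the outer membrane sorting machinery, rose by 0.33 (edgeR adjusted p = 0.00815), a call lost in 1 of 22 alternatives. 2410015M20Rik rose by 0.32 (edgeR adjusted p = 0.049), a call lost in 14 of 22. Apool, a cardiolipin-binding MICOS subunit, fell by 0.28 (edgeR adjusted p = 0.00792). Of 8 genes listed as inner membrane scaffold, 3 rose and 1 fell, 50% against the same 24.6%. Ghitm, an inner membrane protein needed for normal cristae, averaged 1027 ± 83.7 CPM in Taz-KD hearts and 340 ± 22.3 CPM in WT hearts (SD, n = 5 each), 3.02-fold higher (edgeR adjusted p = 2.65e-08). Chchd10, a small intermembrane space protein, averaged 771 ± 29.5 CPM in Taz-KD hearts and 357 ± 25.3 CPM in WT hearts (SD, n = 5 each), a log2 fold change of 1.11 (edgeR adjusted p = 1.91e-07). Its relative Chchd2 had a log2 fold change of -0.07 (edgeR adjusted p = 0.413). Phb, the partner of Phb2 in the prohibitin ring, rose by 0.20 and Spg7, a subunit of an inner membrane protease, fell by 0.21, calls lost in 16 and 10 of 22 alternatives.

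Among 4 tested genes for subunits and the inhibitor of the ATP synthase dimer, Atpif1, the inhibitory factor, averaged 52.8 ± 10.8 CPM in Taz-KD hearts and 30.4 ± 6.11 CPM in WT hearts (SD, n = 5 each), a log2 fold change of 0.80 (edgeR adjusted p = 0.00448). Usmg5 fell by 0.24, a call lost in 9 of 22 alternatives. These 2 calls were 50% of the 4 genes, against 24.6% of all genes tested.

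**Figure D4:**
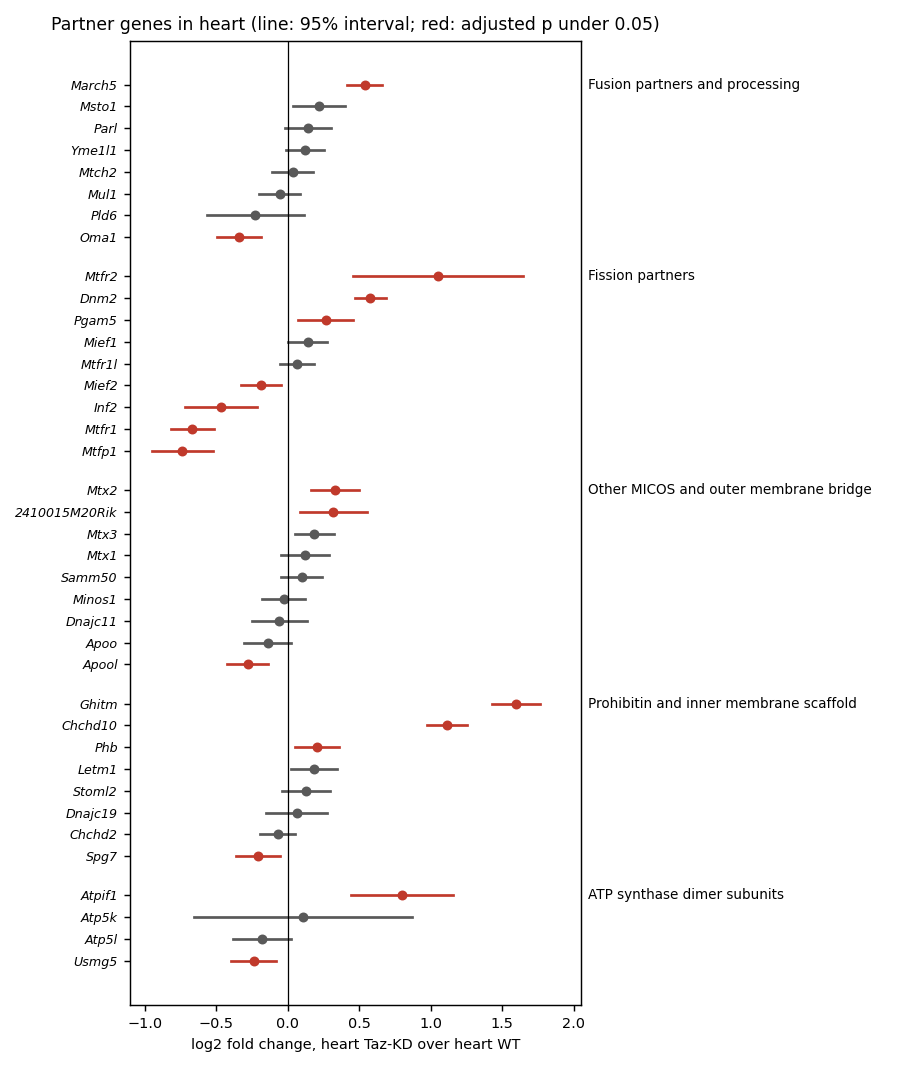
Log2 fold change of Taz-KD over WT hearts (x axis) for the 38 partner genes tested, grouped by role; points are estimates, lines 95% intervals, and red marks an adjusted p under 0.05 in edgeR. Ghitm lies furthest to the right, followed by Chchd10 at 1.11 and Mtfr2 at 1.05, and Mtfp1 furthest to the left at -0.74.

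In muscle, 0 of 36 partner genes passed the test in edgeR. There were 4 at an unadjusted p under 0.05, against 14.9% of all muscle genes: Ghitm, Apoo, Chchd10 and Phb. March5 was not among the genes tested, with 0 to 2 reads per muscle library against 1204 to 2556 reads per heart library. The cause of this gap was not tested. Ghitm averaged 728 CPM in Taz-KD muscle and 464 CPM in WT muscle, a log2 fold change of 0.65 (edgeR adjusted p = 0.311), and its libraries were narrowly apart, at 542.9 CPM in the lowest Taz-KD muscle and 542.8 CPM in the highest WT muscle. Ghitm in muscle passed in DESeq2 (adjusted p = 0.00887). In the interaction test 8 of 39 partner genes passed, against 4.62% of all genes, Mtfr1, Apoo and Atpif1 among them. The heart effect of the knockdown exceeded its muscle effect by 0.89 on the log2 scale for Ghitm (edgeR adjusted p = 0.00824) and by 0.47 for Dnm2 (edgeR adjusted p = 0.0119). For Mtfp1 the difference was -0.80 (edgeR adjusted p = 0.0316), for Oma1 -0.60 (edgeR adjusted p = 0.0417) and for Apool -0.53 (edgeR adjusted p = 0.0153).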

How the data were processed

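By the 1 protocol given for both tissues, RNA was isolated from frozen heart and femur muscle and depleted of ribosomal RNA. Libraries that mark the strand were sequenced as paired ends of 150 bp. Rn7sk differed widely between hearts and muscles, as given above, so whether both tissues followed this protocol is uncertain. The authors aligned reads with STAR to GRCm38 (mm10) and counted them per gene with featureCounts 1.6.4, and their own tests used DESeq2 2.11.40.6. The deposited values are unnormalized counts per Ensembl gene, 1 column per mouse, named by the code in brackets in the sample titles. Not given in the sources used here are the counting's strand setting, its rule for multi-mapped reads and the annotation release.

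Symbols, positions and exon lengths came from GENCODE M21 (GRCm38), where 46574 heart and 53706 muscle genes have an entry. The members and the lists of partner genes and markers were chosen with earlier results of these data known. All 20 libraries were used. Counts were fitted per tissue in R 4.3.3 with edgeR 4.0.16: filterByExpr, TMM scaling, robust quasi-likelihood dispersion and Benjamini-Hochberg adjustment over all genes kept. Standard errors were derived from the F statistic. The tissue difference came from one fit of 20 libraries over 20612 genes. CPM are scaled with TMM factors, and libraries were called apart when every one of a genotype lay above every one of the other. Level per length is CPM per kilobase of the union of exons. Alternatives were DESeq2 1.42.0, limma-voom (limma 3.58.1), other scaling and filters, one fit of both tissues, blocks, and each library left out in turn. The fit was tested on simulated data with 200 changed genes. The rule for named genes took all members, Taz, up to 4 partners past the test per list and those against the others of their list, and the 5 genes nearest in pattern to the member with the smallest adjusted p in each tissue. Apoo, Chchd2, Mief2, Yme1l1 and Rn7sk were named after their values were seen. The partner gene 2010107E04Rik was not matched and was not analysed here. Near-identical copies were searched in the annotated transcripts at 90% identity over 300 bases or more. Dnm1l and Immt each had 1 such pseudogene, with a mean of 0.1 counts in heart and 0 in muscle. Exons on the opposite strand overlapped 4.67% of the exon bases of Dnm1l, 2% of Mff, 1.63% of Immt and 3.79% of Phb2.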

Additional observations from a re-analysis of the deposited data

Results flagged for a closer look

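In groups of 5 libraries, a value was marked when its gap to the nearest library, divided by the range of the group, exceeded Dixon's critical value of 0.71. Of 44 groups checked, 3 were marked, and chance marks about 1 in 20. Dnm1l in Taz-KD hearts had a gap of 0.816, from the low library R1797. Mff in Taz-KD muscles had a gap of 0.907, from the high library A39. Taz in Taz-KD muscles had a gap of 0.71, from A58, the highest of the Taz-KD muscles at 15.2 CPM and still below every WT muscle.

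Opa1, which passed the test in neither tissue, was marked because every Taz-KD heart lay below the WT heart mean and every Taz-KD muscle lay above the WT muscle mean. The difference of heart minus muscle was -0.42 on the log2 scale, which missed the threshold in the interaction test (edgeR adjusted p = 0.272), and without WT muscles A33 and A55 it was -0.17. Without them the muscle value of Opa1 was -0.03, of the same sign as in heart. Chchd6 was marked for a difference past that test, with a heart effect 1.26 above the muscle effect (edgeR adjusted p = 0.00185).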

How the results depend on the processing

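No paired analysis was possible because the genotypes share no replicate numbers. No value past the test changed sign, while some that did not pass did, such as Opa1, Mfn2 and Chchd6 in muscle without WT muscles A33 and A55 and Fis1 in heart in 4 of 22 alternatives. Of 720 member values under the alternatives 705 kept their side of the threshold; the exceptions were those of Phb2 (11) and Opa1 (4) in heart, and Opa1 in heart was -0.20 to -0.24 on the log2 scale where it passed. Members called in heart were 2 in the fit reported, 1 with median-ratio factors and 1 in one fit of all 20 libraries, and 1 to 2 with a library left out. DESeq2 called 3, adding Opa1. Genes called in heart were 4803, against 2087 in one fit of all 20 libraries, and partner genes called in heart were 18, against 9. Calls in heart were 58.4% higher in Taz-KD, 49.3% with upper-quartile factors. Genes called in muscle were 3, against 145 in DESeq2 and 167 in one fit of all 20 libraries. They were 1 with adjacent title codes as a block, which the labels do not name as pairs. With a library left out they were 3 to 5, the 5 without Taz-KD muscle A52. Partner genes called in muscle were 0, against 1 in DESeq2 and 1 in one fit of all 20 libraries, which was Ghitm. Leaving out WT muscles A33 and A55 and weighting libraries by quality were added after seeing the data. The cause of these changes was not tested. Among the members depth limits Chchd6 most, at 102 to 384 reads per heart library. The order of levels between members depends on the exon length used, and levels were not tested between tissues.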
